A study of Mus musculus with 8 samples.

Results

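The growth hormone receptor pathway of the liver was followed here through 9 genes: the receptor Ghr, its kinase Jak2, the transducers Stat5a and Stat5b, the inhibitors Socs2 and Cish, the repressors Bcl6 and Cux2, and the activator Onecut1. Every probe set annotated on the array platform with exactly one of these symbols was taken, which gave 23 of the 45101 probe sets and 9 of the 18193 named genes. Whole liver was measured in 5 POMCMfn2KO mice and 3 control mice, 1 array per mouse. POMCMfn2KO mice lack mitofusin 2, a protein of mitochondrial fusion, in the POMC neurons of the hypothalamus; controls carry the genotype label WT. Both groups were aged 6 weeks, were of a mixed C57Bl/6J, FVB/N and 129 background, and had standard chow and water without restriction. The labels used here name no Cre line, sex, time of collection or fasting state, and they call the animals of each group biological replicates.

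Growth hormone from the pituitary reaches hepatocytes in pulses in male rodents and more evenly in females. Its receptor carries no kinase of its own: JAK2, bound to the receptor, phosphorylates STAT5A and STAT5B, which enter the nucleus and switch on Igf1, Socs2 and Cish. SOCS2 and CISH then dampen the signal, BCL6 represses many STAT5 targets and is itself repressed by STAT5, and CUX2 and HNF6 (the product of Onecut1) help to set the sex bias of hepatic genes in mice and rats. All levels below are log2 levels of a probe set, and all differences are log2 differences, POMCMfn2KO minus control.

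Promoters were scanned for the letters bound by STAT5 dimers, TTCNNNGAA, which read the same on both strands. The 2 promoters printed here were chosen after the scan, as those with more than 1 match. RefSeq (GRCm38.p6) promoter sequences, each of 300 bases with 250 before the annotated start, were found for 8 of the 9 genes, 13 promoters in all, and Socs2 had no entry. A match was present in 3 of these promoters, those of Cish and Bcl6, and 8.3% of all 32851 promoters held at least one. In the Cish promoter the first bases of the matches lay at the annotated start and 11 bases after it. In one Bcl6 promoter they lay 168, 122 and 88 bases before the start, and the other Bcl6 promoter had 1 match. At least 2 matches occurred in 0.457% of all promoters and at least 3 in 0.0335%. A match describes the letters alone. Both promoters follow 5′ to 3′, with matches in capitals.
Cish, chr9:107296409-107296708, plus strand: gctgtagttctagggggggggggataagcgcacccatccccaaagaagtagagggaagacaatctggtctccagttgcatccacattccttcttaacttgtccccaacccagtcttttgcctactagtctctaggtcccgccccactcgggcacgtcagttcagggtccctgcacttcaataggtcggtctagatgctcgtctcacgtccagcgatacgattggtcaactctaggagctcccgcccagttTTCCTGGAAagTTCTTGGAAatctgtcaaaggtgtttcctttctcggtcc
Bcl6, chr16:23981234-23981533, minus strand: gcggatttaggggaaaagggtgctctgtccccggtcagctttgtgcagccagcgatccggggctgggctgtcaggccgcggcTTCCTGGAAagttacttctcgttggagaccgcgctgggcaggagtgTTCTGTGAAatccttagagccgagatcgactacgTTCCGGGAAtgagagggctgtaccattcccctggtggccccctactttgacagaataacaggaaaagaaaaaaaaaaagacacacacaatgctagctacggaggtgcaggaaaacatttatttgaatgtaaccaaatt

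The authors' RMA values were comparable across arrays, with medians between 5.79 and 5.81. Each gene was tested on its brightest probe set, by the mean of all 8 arrays, and genes whose mean fell below 5.80, the median of all non-control probe sets, were left out; 11986 genes were tested, with all 9 pathway genes among them. Of the 23 probe sets, 17 lay at or above that level. Of 8 hepatocyte markers 7 were measured, none was below 5.80 in every array, and all but Ass1 were high in every liver. Ass1 ran between 6.78 and 8.15 in POMCMfn2KO and between 7.18 and 7.36 in controls. Summed linear levels of these markers were 157419 to 174688 in POMCMfn2KO and 152920 to 154494 in controls. The ranges of these sums did not overlap. Cps1 rose (0.31, limma adjusted p = 0.0264), and the other tested hepatocyte markers did not pass. In 5 of the 7 the groups did not overlap, against 28.5% of all genes tested. Every POMCMfn2KO liver lay above every control for Cps1, Tat (0.44), Tdo2 (0.19) and Apoa1 (0.12), and below every control for Ttr (-0.11). POMCMfn2KO 2 and 3 carried pancreatic transcripts: the summed linear level of 11 acinar markers was between 1303 and 23045 in POMCMfn2KO and between 1275 and 1294 in controls, with 21063 and 23045 in POMCMfn2KO 2 and 3 and 1422, 2036 and 1303 in the other POMCMfn2KO livers. The controls resembled each other more (r between 0.9974 and 0.9977 over probe sets) than the POMCMfn2KO livers did (0.9896 to 0.9963), so a gene can vary more in one group than in the other. In whole liver, fewer cells of a type and less RNA per cell cannot be told apart.

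In POMCMfn2KO liver Socs2 rose and Jak2 fell. They were the members past the test, 2 of 9 genes, 1 in each direction, where 18% of all genes tested passed (7.02% higher, 10.9% lower). In 3 of the 9 genes the groups did not overlap, against 28.5% of all genes. At an unadjusted p under 0.05 in limma, 4 of the 9 genes and 33.1% of all genes passed. The share of the pathway called was therefore near that of the array as a whole. None of the 23 probe sets passed when all 45037 non-control probe sets were tested together in limma, where 7.33% passed; 9 of the 23 had an unadjusted p under 0.05, against 21.6% of all probe sets, and 5 of the 23 had groups that did not overlap, against 17.2%.

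**Figure D1:**
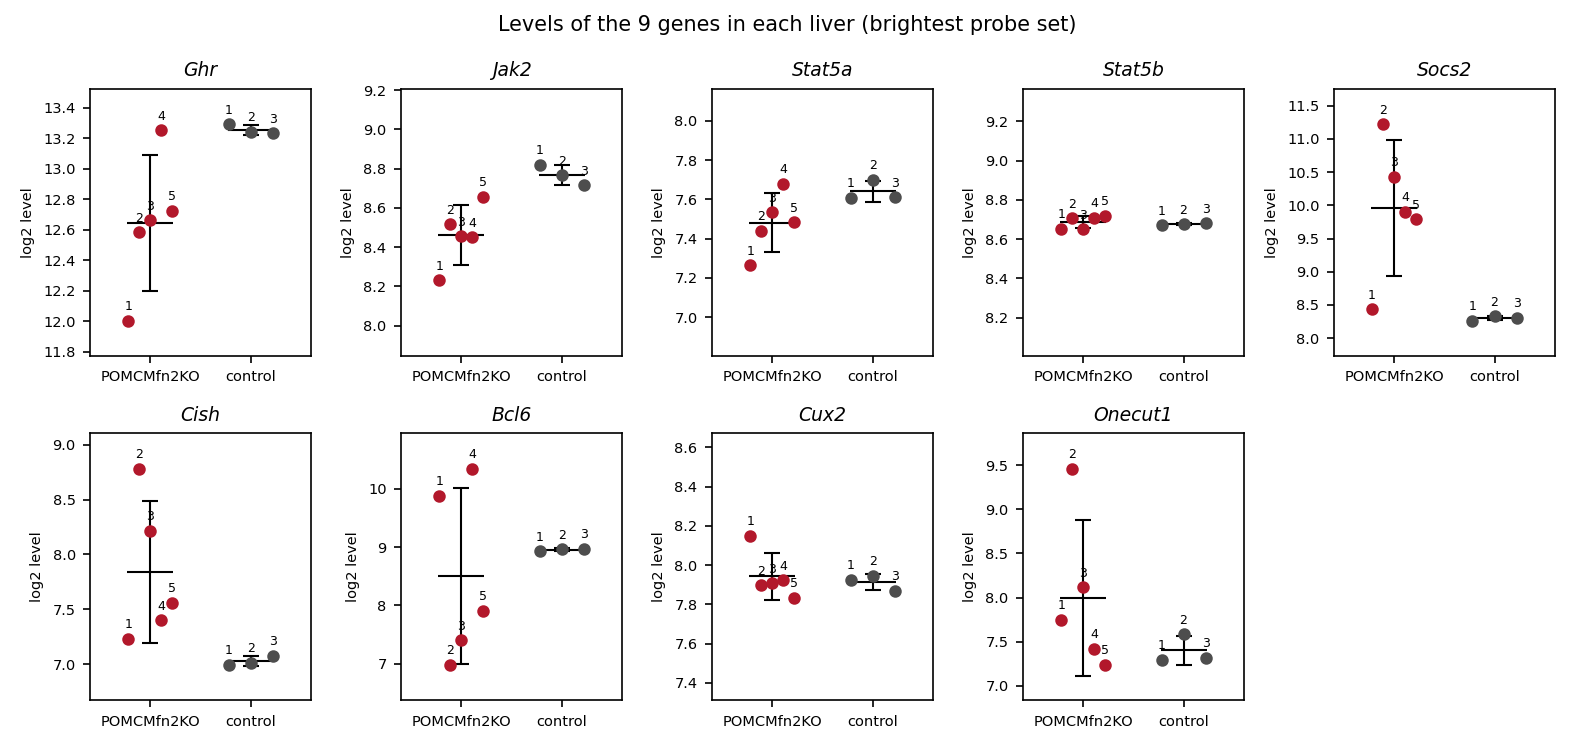
Log2 level of each of the 9 genes (vertical axis, brightest probe set, a separate scale per panel) in 5 POMCMfn2KO livers (red) and 3 control livers (grey), numbered by replicate, with mean and SD. All 5 POMCMfn2KO livers lie above the controls for Socs2 and Cish and below them for Jak2, while Bcl6 spans 6.98 to 10.35 on both sides of the controls.

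The receptor and its kinase had lower means in POMCMfn2KO liver. Ghr, the cell surface receptor, had levels of 12.00, 12.58, 12.66, 13.25 and 12.72 in POMCMfn2KO 1 to 5, against 13.29, 13.24 and 13.23 in controls 1 to 3. POMCMfn2KO 4 lay within the control range, the others lay below it, and POMCMfn2KO 1 was lowest. Its mean was 12.65 ± 0.44 in POMCMfn2KO and 13.26 ± 0.03 in controls (SD, n = 5 and 3), a difference of -0.61 (SE 0.22, 95% interval -1.10 to -0.12, limma adjusted p = 0.0836) that did not pass. The other Ghr probe sets gave -0.32 each, with overlapping groups. On the brighter of them POMCMfn2KO ran between 11.91 and 12.47 and controls between 12.43 and 12.54. Without POMCMfn2KO 4 the Ghr difference was -0.76 and passed (adjusted p = 0.0121); it also passed with array weights by genotype (0.0229).

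Jak2, the tyrosine kinase that the receptor holds, had levels of 8.23, 8.52, 8.46, 8.45 and 8.66 in POMCMfn2KO 1 to 5, against 8.82, 8.77 and 8.72 in controls. Every POMCMfn2KO liver lay below every control, by a small margin in POMCMfn2KO 5. The mean was 8.46 ± 0.15 in POMCMfn2KO and 8.77 ± 0.05 in controls, a difference of -0.31 (SE 0.09, 95% interval -0.51 to -0.10), or 1.24-fold lower (limma adjusted p = 0.0474). The other Jak2 probe set gave -0.27 with overlapping groups (unadjusted p = 0.0846). The call was lost without any single control (adjusted p up to 0.164), without POMCMfn2KO 2, 3 or 4 (up to 0.0912), and without POMCMfn2KO 2 and 3 together (0.147).

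Of the transducers, neither passed. Stat5b, the main hepatic STAT5 gene, had levels of 8.65, 8.71, 8.65, 8.71 and 8.72 in POMCMfn2KO 1 to 5 and 8.67, 8.68 and 8.68 in controls. The groups overlapped within a range of less than 0.1, and the difference was 0.01 (95% interval -0.11 to 0.13, limma adjusted p = 0.916). The other Stat5b probe set gave 0.10 (-0.07 to 0.27). Stat5a, its close relative, had levels of 7.26, 7.44, 7.53, 7.68 and 7.48 in POMCMfn2KO 1 to 5, against 7.61, 7.70 and 7.61 in controls. POMCMfn2KO 4 lay inside the control range and the other POMCMfn2KO livers below it, with a difference of -0.16 (95% interval -0.36 to 0.04, adjusted p = 0.252). The other Stat5a probe set was below 5.80 in every array and gave -0.10. Probe sets can bind near-identical transcripts, so the values of Stat5a and Stat5b may share signal.

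Both STAT5-induced inhibitors had higher means in POMCMfn2KO liver, and Socs2 passed the test. Socs2, which targets the receptor for degradation, had levels of 8.44, 11.22, 10.43, 9.91 and 9.79 in POMCMfn2KO 1 to 5, against 8.26, 8.33 and 8.31 in controls. POMCMfn2KO 1 stood just above the controls and the other POMCMfn2KO livers far above them. The mean was 9.96 ± 1.02 in POMCMfn2KO and 8.30 ± 0.03 in controls, a difference of 1.66 (SE 0.49, 95% interval 0.55 to 2.76), or 3.15-fold higher (limma adjusted p = 0.0456). Socs2 had 6 probe sets. The second brightest read 7.42, 10.23, 9.47, 9.20 and 8.53 in POMCMfn2KO 1 to 5, against 7.31, 7.36 and 7.33 in controls, a difference of 1.64 with the same mouse lowest and the same mouse highest. The third gave 0.20, also with no overlap, and the other 3 were below 5.80 in every array, with differences between -0.00 and 0.14.

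The size of the Socs2 rise depended on single livers. It was 2.03 without POMCMfn2KO 1 (adjusted p = 0.00331) and 1.34 without POMCMfn2KO 2 (0.0613). The call was lost without any single control (adjusted p up to 0.138), without any one of POMCMfn2KO 2 to 5 (up to 0.0954), with a trended and robust variance (0.0781) and when its 6 probe sets were averaged (0.62, adjusted p = 0.0640). POMCMfn2KO 2 and 3, with the highest Socs2, were the livers with pancreatic transcripts; without both the difference was 1.08 (adjusted p = 0.122). The acinar sums of POMCMfn2KO 1, 4 and 5 were 1422, 2036 and 1303, against 1275 to 1294 in controls, and the part of pancreatic transcripts in the Socs2 level was not tested.

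Cish, the other inhibitor and a direct STAT5 target whose promoter is printed above, had levels of 7.23, 8.78, 8.21, 7.40 and 7.56 in POMCMfn2KO 1 to 5, against 6.99, 7.01 and 7.08 in controls. No POMCMfn2KO liver overlapped the controls, and POMCMfn2KO 1 was again lowest and POMCMfn2KO 2 highest. The mean was 7.84 ± 0.65 in POMCMfn2KO and 7.03 ± 0.04 in controls, a difference of 0.81 (SE 0.31, 95% interval 0.10 to 1.51) that did not pass (limma adjusted p = 0.105). It passed without POMCMfn2KO 1 (0.96, adjusted p = 0.0455) and with array weights by genotype (0.0299), and was 0.37 without POMCMfn2KO 2 and 3 (0.0750).

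**Figure D2:**
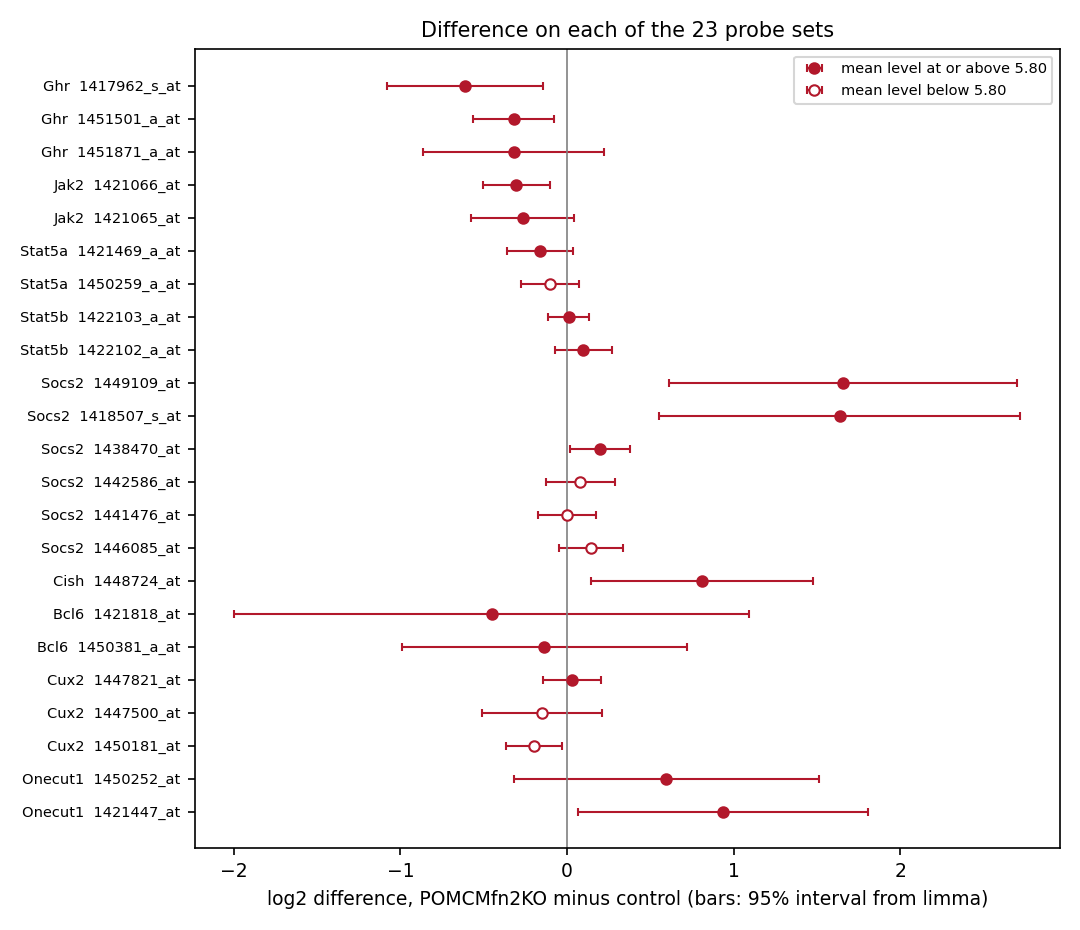
Log2 difference, POMCMfn2KO minus control, on each of the 23 probe sets (horizontal axis, points with 95% intervals from limma; open points have a mean level below 5.80). The bright Socs2 probe sets lie at 1.66 and 1.64 and those of Stat5b at 0.01 and 0.10, while the interval of Bcl6 runs from -1.996 to 1.09.

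Bcl6, a zinc-finger repressor with higher levels in male than in female mouse liver, had no common direction in POMCMfn2KO. Its levels were 9.88, 6.98, 7.41, 10.35 and 7.91 in POMCMfn2KO 1 to 5, against 8.93, 8.96 and 8.98 in controls. POMCMfn2KO 1 and 4 stood above every control and POMCMfn2KO 2, 3 and 5 below every control. The mean was 8.51 ± 1.51 in POMCMfn2KO and 8.96 ± 0.02 in controls, and the difference of -0.45 had a 95% interval of -2.08 to 1.18 (limma adjusted p = 0.713). Its other probe set was highest in POMCMfn2KO 4 and lowest in POMCMfn2KO 2 as well, at 6.36, 5.32, 5.85, 7.39 and 5.54 in POMCMfn2KO 1 to 5, against 6.42, 6.21 and 6.06 in controls. Without POMCMfn2KO 2 and 3 the Bcl6 difference changed sign, to 0.42 (adjusted p = 0.687).

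Onecut1, which encodes HNF6, had levels of 7.75, 9.46, 8.12, 7.42 and 7.24 in POMCMfn2KO 1 to 5, against 7.30, 7.59 and 7.32 in controls. POMCMfn2KO 1, 2 and 3 lay above the controls, POMCMfn2KO 4 among them and POMCMfn2KO 5 just below. The difference was 0.60 (95% interval -0.37 to 1.56, limma adjusted p = 0.370). The second probe set read 6.45, 7.89, 6.83, 6.27 and 5.60 in POMCMfn2KO 1 to 5, against 5.64, 5.81 and 5.57 in controls. Its difference was 0.93 (95% interval 0.06 to 1.80, limma adjusted p = 0.198 over all probe sets), and 1 POMCMfn2KO liver and 2 controls lay below 5.80. On the brightest probe set the difference was 0.23 without POMCMfn2KO 2, the highest of the livers, and 0.07 without POMCMfn2KO 2 and 3.

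Cux2, a repressor of male-biased genes that is found chiefly in female mouse liver, lay below the filter on 2 of its 3 probe sets. The brightest read 8.15, 7.90, 7.91, 7.92 and 7.83 in POMCMfn2KO 1 to 5, against 7.93, 7.95 and 7.87 in controls, with overlapping groups and a difference of 0.03 (95% interval -0.15 to 0.21, limma adjusted p = 0.837). The dim probe sets were below 5.80 in every array and gave -0.15 and -0.20. Averaged over its 3 probe sets, the Cux2 difference was -0.11, so its sign depended on the probe sets used.

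Set side by side, the livers of POMCMfn2KO mice differed most from each other in Bcl6, Socs2, Onecut1 and Cish and least in Stat5b. POMCMfn2KO 2 had the highest Socs2, Cish and Onecut1 and the lowest Bcl6, relative to the control mean by 2.92, 1.75, 2.06 and -1.97. POMCMfn2KO 3 came next in all 4, by 2.13, 1.19, 0.71 and -1.55. POMCMfn2KO 1 had the lowest Socs2 and Cish, at 0.14 and 0.21 above the control mean, with Bcl6 at 0.92 above it and Ghr at -1.25. In POMCMfn2KO 4, as in POMCMfn2KO 1, both Socs2 and Bcl6 were above the control mean, by 1.604 and 1.39 in POMCMfn2KO 4. POMCMfn2KO 5 had Socs2 at 1.49, Cish at 0.53 and Bcl6 at -1.05. With 5 livers these orders are a description, and POMCMfn2KO 2 and 3 were the livers with pancreatic transcripts, whose part in the levels of Socs2, Onecut1, Cish and Bcl6 was not tested.

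**Figure D3:**
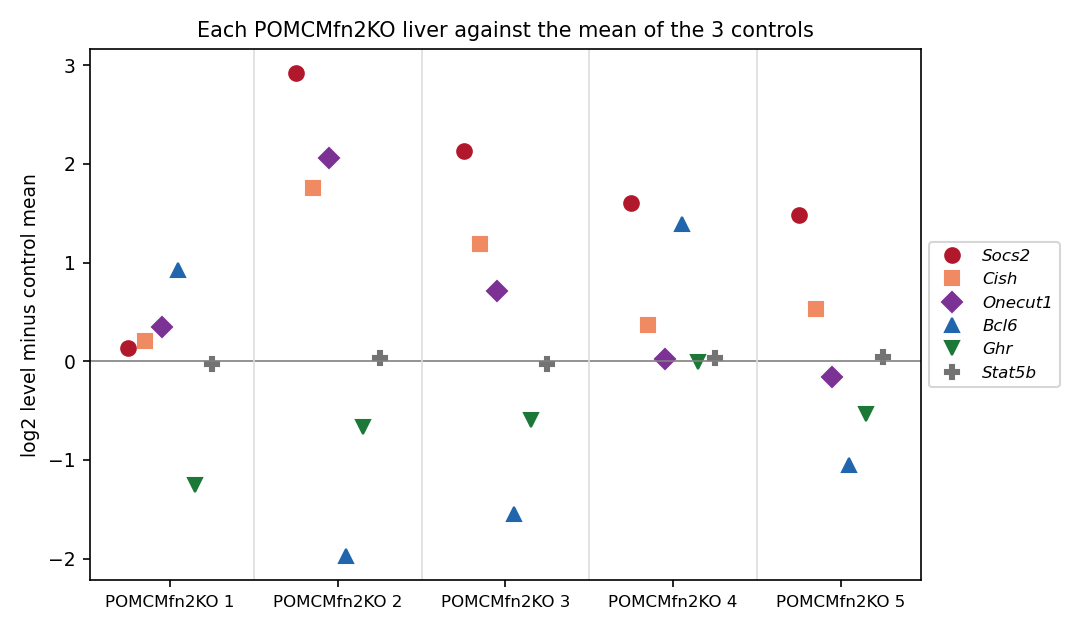
Log2 level minus the control mean (vertical axis) of 6 genes in each of the 5 POMCMfn2KO livers (horizontal axis, no order implied). Socs2 and Cish lie above 0 in all 5, Bcl6 lies above 0 in POMCMfn2KO 1 and 4 and below it in POMCMfn2KO 2, 3 and 5, and Stat5b stays near 0.

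The SD among the POMCMfn2KO livers put numbers on this spread. It was 1.51 for Bcl6, 1.02 for Socs2, 0.88 for Onecut1, 0.65 for Cish and 0.44 for Ghr, against 0.02, 0.03, 0.16, 0.04 and 0.03 among controls. Of all genes tested, 0.192% had a larger POMCMfn2KO SD than Bcl6, 0.442% than Socs2, 0.592% than Onecut1, 1.38% than Cish and 3.36% than Ghr. The SD of Stat5b was 0.03 in POMCMfn2KO and 0.0048 in controls, and 98.8% of genes had a larger POMCMfn2KO SD. Jak2, Stat5a and Cux2 lay in the middle, with 40.3%, 41.8% and 57.6% of genes above them. The median SD over all genes tested was 0.135 in POMCMfn2KO and 0.0686 in controls.

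**Figure D4:**
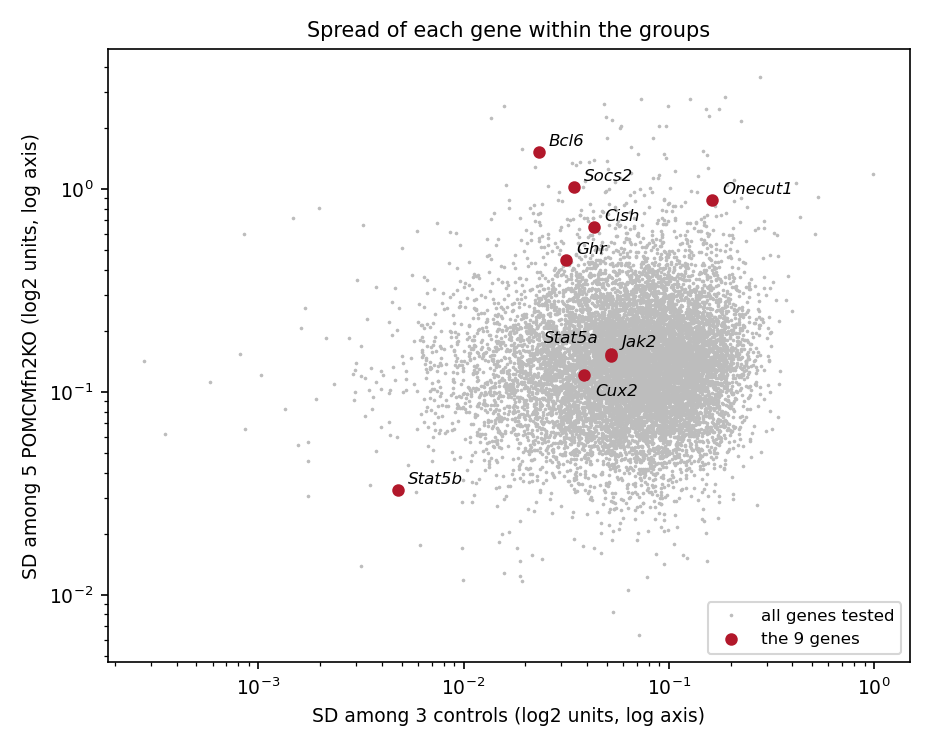
SD of the log2 level among the 5 POMCMfn2KO livers (vertical log axis) against that among the 3 controls (horizontal log axis) for each of 11986 genes (grey) and the 9 pathway genes (red). Bcl6, Socs2, Onecut1 and Cish sit near the top of the cloud on the POMCMfn2KO axis, at 1.51, 1.02, 0.88 and 0.65, and Stat5b near its lower edge at 0.03.

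For the members that passed, the genes with the most similar pattern over the 8 arrays were listed by Pearson's r of log2 levels, as a description in which the group difference itself contributes. Socs2 was closest to Slc25a30 (r = 0.976, difference 1.42), Arhgap29 (0.969, 0.42) and Gm2788 (0.965, 0.57). Jak2 was closest to Plpp2 (0.994, -0.30), P2rx4 (0.986, -0.28) and Slc35a1 (0.984, -0.31). Of these 6, Slc35a1 passed the gene test (limma adjusted p = 0.0474).

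Transcripts of the main endocrine products of the pathway in liver did not pass, while 2 of the 4 IGF-binding protein genes on the list did. Igf1, the hormone through which growth hormone drives much of growth, had levels of 12.76, 13.27, 13.22, 13.17 and 12.98 in POMCMfn2KO 1 to 5, against 12.94, 12.97 and 12.91 in controls, a difference of 0.14 (limma adjusted p = 0.424), and differences of -0.09, 0.15 and 0.19 were found on 3 further Igf1 probe sets. Igfals, which stabilises circulating IGF1, had levels of 9.07, 10.06, 10.22, 10.31 and 10.13 in POMCMfn2KO 1 to 5, against 9.95, 9.98 and 10.11 in controls, a difference of -0.05 (0.916). POMCMfn2KO 1, lowest in Socs2, Cish and Ghr, was also the lowest liver for both. In the list of 6 IGF system genes 2 rose, Igfbp2 (2.502) and Igfbp1 (2.11), and none fell. Of all genes tested 7.02% rose and 10.9% fell. Without POMCMfn2KO 2 and 3, Igfbp1 was lost (limma adjusted p = 0.0612). Igfbp3 (0.65, limma adjusted p = 0.242) and Igfbp4 (-0.10, 0.267) did not pass, and their groups overlapped.

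Most relatives of the receptor, kinase and transducers that were tested did not pass. Of 18 such genes, 1 rose and 2 fell, where 7.02% of all genes tested rose and 10.9% fell. The median difference was -0.03, beside -0.02 for all genes tested. Lifr, the receptor of leukaemia inhibitory factor, rose by 1.46 (limma adjusted p = 0.00258), at 11.16, 11.93, 11.86, 11.14 and 11.90 in POMCMfn2KO 1 to 5, against 10.24, 10.10 and 10.06 in controls. Stat3, the transducer of interleukin 6 signals, fell by 0.56, and Jak3, a kinase of leukocyte cytokine receptors, fell by 0.52. Dimmer Lifr probe sets gave 0.54 and 0.34. Jak1 (0.14, adjusted p = 0.179) and Tyk2 (-0.03, 0.785) did not pass, nor did Lepr (0.71, 0.154).

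Among 17 other brakes on JAK-STAT signalling 2 fell and none rose, with a median of 0.04, where 10.9% of all genes fell and 7.02% rose. Socs3, the inhibitor induced by STAT3, fell by 0.80, at 7.98, 7.90, 8.01, 7.55 and 7.81 in POMCMfn2KO 1 to 5, against 8.85, 8.57 and 8.53 in controls, while its relative Socs2, on its own probe set, was higher in each of these livers than in any control. Other Socs3 probe sets gave -0.87 and -0.21. Socs1, Socs4, Socs5, Socs6 and Socs7 did not pass, with differences between -0.07 and 0.34. Sh2b3, an adaptor that restrains JAK2, fell by 0.26 (adjusted p = 0.0472). Leaving out control 1, control 2 or any of POMCMfn2KO 2 to 4 ended that call (up to 0.183), as did averaging its probe sets (0.182). The count that fell was 1 without POMCMfn2KO 2 and 3 together.

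**Figure D5:**
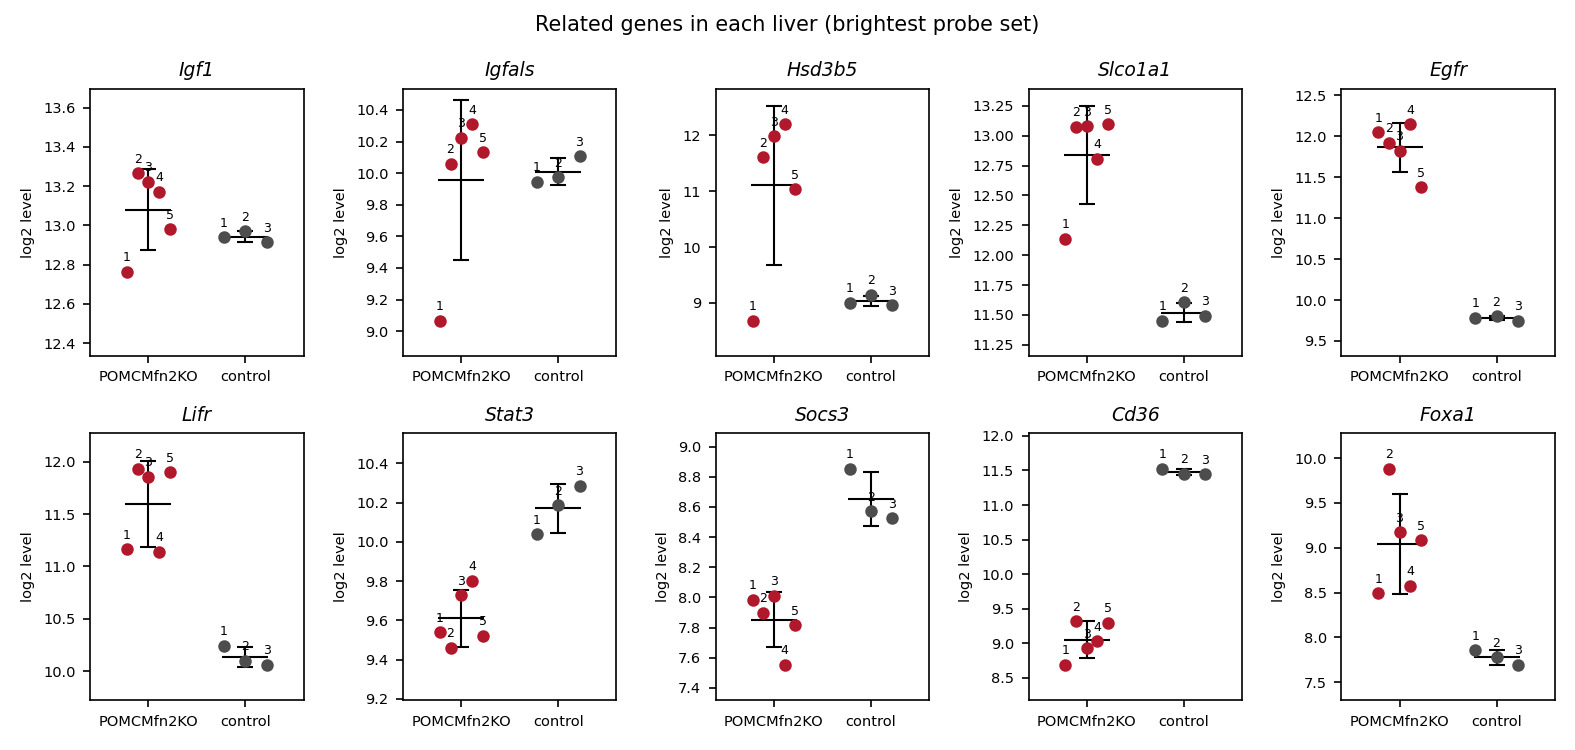
Log2 level (vertical axis, a separate scale per panel) of 10 related genes in 5 POMCMfn2KO livers (red) and 3 controls (grey), numbered by replicate, with mean and SD. POMCMfn2KO 1 is the lowest POMCMfn2KO liver for Igf1, Igfals, Hsd3b5, Slco1a1, Cd36 and Foxa1, and the groups do not overlap for Slco1a1, Egfr, Lifr, Stat3, Socs3, Cd36 and Foxa1.

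Genes whose sex bias depends on growth hormone pulses and STAT5b in mouse liver were set beside the pathway, with lists chosen when earlier results were known. Of 19 male-biased genes tested 7 rose and none fell, with a median of 0.34, where 7.02% of all genes tested were called higher and 10.9% lower. In 12 of the 19 the groups did not overlap, against 28.5% of all genes tested. Serpina12 (-1.25, limma adjusted p = 0.0617) and Dntt (-0.67, 0.0559) did not pass, but every POMCMfn2KO liver lay below every control in both. Cyp2d9 (0.26, limma adjusted p = 0.0583), Mup3 (0.16, 0.110) and Cspg5 (0.33, 0.122) did not pass either. In these every POMCMfn2KO liver lay above every control. The genes that rose with the lowest p were Egfr (2.08), the glucuronosyltransferase gene Ugt2b38 (3.21), the organic anion transporter gene Slco1a1 (1.32) and C8b of the complement system (1.08). The 5 further Egfr probe sets above the filter gave 1.77, 1.28, 1.18, 0.08 and 0.04. Hsd3b5, a steroid dehydrogenase gene strongly dependent on STAT5b and chosen here after its values were seen, had levels of 8.68, 11.61, 11.99, 12.20 and 11.03 in POMCMfn2KO 1 to 5, against 9.004, 9.14 and 8.96 in controls. POMCMfn2KO 1 lay below the controls and the other POMCMfn2KO livers far above them; the difference was 2.07 (limma adjusted p = 0.0651), and 2.67 without POMCMfn2KO 1 (0.000446). Ugt2b38, a member of a family of close relatives, can include their signal. The male-biased count was 12 without POMCMfn2KO 1 and as low as 4 without single controls.

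Of 13 female-biased genes tested 3 rose and 3 fell, with a median of 0.11, where 7.02% of all genes rose and 10.9% fell. The neurotrophin receptor gene Ntrk2 (-1.21), Rtn4 (-0.68) and the proton pump subunit gene Atp6v0d2 (-0.71) fell. Those that rose were Nipal1 (1.34), Hamp2 (0.66, limma adjusted p = 0.0185) and Cyp17a1 (1.63, 0.0277), each with every POMCMfn2KO liver above every control. Nipal1 was lost without any single control (adjusted p up to 0.0607) and without POMCMfn2KO 2 and 3 (0.0671). Of the 7 other Ntrk2 probe sets, 1 gave -1.86 (mean 4.96 in POMCMfn2KO and 6.82 in controls, limma adjusted p = 4.5e-05 over all probe sets), although its mean over the 8 arrays lay below the filter. The remaining Ntrk2 probe sets lay between -0.12 and 0.06, all with overlapping groups. For Rtn4, the probe sets besides the brightest that reached the filter gave -0.77, -0.09 and 0.07. Atp6v0d2 averaged 5.73 in POMCMfn2KO and 6.44 in controls, so it reached the filter of 5.80 through the control livers, and background limits the size of its difference. No female-biased gene passed in the higher direction without POMCMfn2KO 2 and 3, or without any single control. The Y-linked genes Eif2s3y, Kdm5d and Uty lay above 5.80 in all 8 livers. Their groups overlapped, with differences of 0.01, 0.05 and -0.00. Levels in POMCMfn2KO were between 9.85 and 9.998, 6.27 and 6.67, and 7.45 and 7.97, against 9.85 to 9.93, 6.28 to 6.44, and 7.68 to 7.78 in controls.

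Genes of fat uptake and storage that are known to rise in mouse liver after hepatic loss of the receptor, JAK2 or STAT5 were mostly lower in POMCMfn2KO. Of 8 tested 5 fell and 1 rose, with a median of -1.09, where 10.9% of all genes tested fell and 7.02% rose. This list too was chosen with earlier results known. Cd36, a fatty acid transporter gene, had levels of 8.69, 9.32, 8.92, 9.03 and 9.30 in POMCMfn2KO 1 to 5, against 11.53, 11.46 and 11.45 in controls (-2.43). Mogat1 (-3.00), Cidea (-1.58) and Pparg (-1.05) fell as well. Mogat1 and Cidea averaged 5.37 and 5.79 in POMCMfn2KO and 8.37 and 7.37 in controls. They thus reached the filter of 5.80 through the control livers, and background limits the size of their differences. Fabp4, which adipocytes and endothelial cells express, was the gene that rose (0.48). It did not pass at an adjusted p of 0.01 or without POMCMfn2KO 2 and 3, when no gene of the list passed in the higher direction.

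Of 10 liver-enriched factors and paralogs of the members, 2 rose and 2 fell, with a median of 0.19. Of all genes tested 7.02% rose and 10.9% fell. Foxa1, a forkhead factor, had levels of 8.49, 9.88, 9.18, 8.58 and 9.09 in POMCMfn2KO 1 to 5, against 7.86, 7.78 and 7.69 in controls, a rise of 1.27 with POMCMfn2KO 2 highest as for Onecut1. Foxa3 rose by 0.48, and Cebpa (-0.29) and Cux1, the relative of Cux2 (-0.29), fell. Each of these calls was lost without 2 or more single arrays (adjusted p up to 0.168). The further Cux1 probe sets above the filter gave 0.02 and 0.05. Those below it lay between -0.15 and 0.17, all with overlapping groups. Onecut2, the relative of Onecut1, did not pass (0.27, limma adjusted p = 0.343).

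Leukocytes also use JAK2, STAT5, CISH and BCL6, so markers of other cells are given beside these results. Summed linear levels of 6 neutrophil and monocyte markers were 290 to 349 in POMCMfn2KO and 474 to 512 in controls, with Itgam below 5.80 in every array. Of these markers 4 reached the filter and were tested, while the sums also hold those left out of the test. Among the tested markers S100a9, a neutrophil calcium-binding protein gene, fell. Its mean was 5.89 in POMCMfn2KO and 7.45 in controls (-1.56, limma adjusted p = 1.3e-05). Ccr2 (0.21), Mpo (-0.12) and Ngp (-0.19) did not pass. The 9 B and T cell markers summed to 686 to 857 in POMCMfn2KO and 766 to 867 in controls, with Cd3g, Cd79a and Ms4a1 below 5.80 in every array. The 9 Kupffer cell markers summed to 6085 to 10143 in POMCMfn2KO and 8707 to 10679 in controls. Of these, Timd4 passed (-0.69, limma adjusted p = 0.00405), with every POMCMfn2KO liver below every control, and the other Kupffer markers did not. The 7 sinusoidal endothelial markers summed to 3519 to 4634 in POMCMfn2KO and 3046 to 3817 in controls. Stab2 passed (0.55, limma adjusted p = 0.0107), with every POMCMfn2KO liver above every control, and the other tested endothelial markers did not. The 7 stellate cell markers summed to 2158 to 2881 in POMCMfn2KO and 2465 to 2832 in controls. The 5 cholangiocyte markers summed to 226 to 270 in POMCMfn2KO and 216 to 281 in controls, with Cftr and Krt7 below 5.80 throughout. The part of these cells in the levels of the pathway genes was not tested.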

How the data were processed

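The deposited values are log2 levels per probe set that the authors made with RMA from the affy package, per the submitters' processing notes (versions and genome build not given in the sources used here). No value was transformed again. Symbols came from the platform's annotation: of 45101 probe sets 64 were controls, 34945 had 1 symbol, 932 several and 9160 none. List entries with no singly annotated probe set were not analysed here.

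The whole table was fitted with limma 3.58.1 in R 4.3.3 (moderated variance without trend or robust steps). Tests of POMCMfn2KO minus control were 2-sided, p-values were adjusted after Benjamini-Hochberg, and 0.05 was the threshold. The fit ran once over 11986 genes by brightest probe set and once over all 45037 non-control probe sets. The code was tested on simulated data. Probe-set values in the text come from the second fit, gene values from the first. Named related genes were the up to 4 of each list that passed with the lowest p, plus Igf1 and Igfals. Hsd3b5, Serpina12, Dntt, Cyp2d9, Mup3, Cspg5, Hamp2, Cyp17a1, Igfbp3, Igfbp4, Fabp4, Jak1, Tyk2, Lepr and Onecut2 were named after their values were seen. So were the other Socs genes, the Y-linked genes, the neutrophil markers, Ass1, Cps1, Tat, Tdo2, Apoa1, Ttr, Timd4 and Stab2. The members and lists were chosen with earlier results of these data known. Alternatives changed the filter, probe set, scaling, variance model, threshold and arrays. The number of arrays limits the precision. Figures used matplotlib 3.10.9. Replicate numbers did not pair the livers: deviations of same-numbered livers correlated at 0.04, 0.04 and -0.03.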

Additional observations from a re-analysis of the deposited data

Results flagged for a closer look

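Among the 5 POMCMfn2KO livers, 48 sets of values were examined for 1 liver far from the others, and 4 were found; chance gives about 1 in 20. Igfals was 9.07 in POMCMfn2KO 1, where the nearest other POMCMfn2KO liver had 10.06. Cux2 on its brightest probe set was 8.15 in POMCMfn2KO 1, with the nearest other at 7.92. Igfbp2 was 12.90 in POMCMfn2KO 4, with the nearest other at 13.46, and Pparg was 7.37 in POMCMfn2KO 4, with the nearest other at 6.82.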

How the results depend on the processing

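Calls near the threshold limit these results: Jak2 lost its call under 12 of 20 alternatives and Socs2 under 14, in the same direction each time. The 2 called member genes became 0 with no filter, with the mean of all probe sets, at an adjusted p of 0.01, with the controls averaged to 1 sample and without POMCMfn2KO 2 and 3 together, 1 with a trended and robust variance, and 4 with array weights; leaving out 1 array gave 0 to 3 (2 to 5 at an unadjusted p under 0.05). Replicate numbers do not pair the livers; with the replicate block 1 member gene passed, Ghr (-0.84, adjusted p = 0.0243), 4 member probe sets passed, 1891 genes were called, and Stat5b turned to -0.0065. The 0 called member probe sets became 1 with a filter at the median level and 3 with array weights or at an adjusted p of 0.10, and 0 to 2 without 1 array. Called genes numbered 30 with averaged controls, 702 at 0.01, 645 without POMCMfn2KO 2 and 3, and 819 to 2763 without 1 array; called probe sets numbered 61, 1024, 979 and 988 to 4481, and 5315 at 0.10. Bcl6 turned to 0.42 without POMCMfn2KO 2 and 3, and Cux2 turned to -0.11 with the mean of all probe sets and ran between -0.023 (without POMCMfn2KO 1) and 0.056 when 1 array was left out.

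List counts moved as follows, with the cause not tested. JAK-STAT relatives: 2 higher with the mean of probe sets, 1 lower with the stricter filter, and 1 to 2 higher without 1 array. Brakes: 1 higher with the stricter filter or the mean of probe sets and 3 with array weights or at 0.10; 1 lower with no filter, a trended variance, at 0.01 or without POMCMfn2KO 2 and 3; without 1 array 0 to 2 higher and 1 to 3 lower. IGF system: 1 higher without POMCMfn2KO 2 and 3, and 2 to 3 without 1 array. Male-biased: 11 higher and 2 lower with array weights or at 0.10, 4 higher at 0.01, 1 lower with the replicate block, and 4 to 12 higher and 0 to 2 lower without 1 array. Female-biased: 0 higher at 0.01 or without POMCMfn2KO 2 and 3, 1 lower with the mean of probe sets, and 0 to 4 higher and 3 to 4 lower without 1 array. Fat genes: 0 higher at 0.01 or without POMCMfn2KO 2 and 3, and 0 to 2 higher and 4 to 6 lower without 1 array. Liver factors: 0 higher at 0.01 and 1 without POMCMfn2KO 2 and 3; 1 lower with no filter or the mean of probe sets, 0 with quantile normalization, at 0.01, with the replicate block or without POMCMfn2KO 2 and 3, and 0 to 2 in each direction without 1 array. With averaged controls every list had 0 or 1 called gene in each direction except the fat genes, with 3 lower.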
